A study of Mus musculus with 4 samples.

Results

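The genes described are 38 genes of DNA replication and S phase, chosen by name for their roles in licensing origins, copying DNA and supplying nucleotides. Of these, 37 had a probe set that the platform annotation assigned to that gene alone, 78 probe sets in all, and 34 were tested among 12424 genes. The RNA came from sorted gamma delta intraepithelial lymphocytes, which are T cells resident in the gut lining, of the colon of C57b/6 mice raised conventionally. One group was untreated, and the other drank 2% dextran sulfate sodium (DSS), an agent that damages the colon lining, over 5 days and then had 3 days of recovery on normal water. Each group had 2 samples, each on 1 array. The labels give neither the age of the mice nor whether the 2 samples of a group are different animals, pools or sorts. The p-values therefore reflect the spread of these samples alone, and that spread may be technical.

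A cell prepares to copy its genome in G1, when the origin recognition complex (ORC), Cdc6 and Cdt1 load the ring-shaped MCM helicase onto origins. At the start of S phase Cdc45 and the GINS complex join the MCM ring and switch it on, and polymerases then copy both strands behind it with the sliding clamp Pcna. Many of these genes are transcribed under the E2F transcription factors and are low in resting lymphocytes, so their transcripts are widely read as a sign of cycling cells. Intraepithelial lymphocytes are mostly long-lived resident cells with little division in the uninjured gut.

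Promoters of 32 of the 38 genes were matched in the RefSeq table of build GRCm38.p6, and Gmnn, Mcm4, Gins1, Gins2, Pole and Ccne2 had no entry. The 250 bases before each start were searched on both strands for an E2F site, spelled TTTCCCGC, TTTCGCGC, TTTGCCGC or TTTGGCGC, and for CCAAT, the box bound by NF-Y, whose letters can overlap those of an E2F site by at most 1 base. An E2F site was found for 8 of the 32 genes (25%), against 583 of 27025 genes in the table (2.16%) and 3.71% of the genes that were also tested on the arrays. CCAAT was found for 18 of the 32 (56.2%), against 37.5% of all genes in the table. The share with an E2F site was 18.2% of 33 genes of other replication machinery, 23.3% of 30 further S phase genes of nucleotide synthesis, histone supply and checkpoint, 12.5% of 16 genes that restrain the cycle and 5.88% of 34 mitosis genes. The share with CCAAT in the same lists was 45.5%, 70%, 43.8% and 73.5%. These are counts of letters and show no binding.

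The 6 stretches that follow, each a window of 100 bases within the 250 before a RefSeq start, show the E2F sites of 4 licensing genes described later (Cdc6, Mcm5, Mcm6 and Mcm7), of the polymerase gene Pola1, and of Orc1, the member whose signal lay lowest in DSS relative to untreated samples. Sequences run 5′ to 3′ toward the gene, and capitals mark the E2F letters on either strand. They lie upstream of the gene at chr11:98907967-98908066 (plus strand, Cdc6), chr8:75109310-75109409 (plus, Mcm5), chr1:128359762-128359861 (minus, Mcm6), chr5:138171995-138172094 (minus, Mcm7), chrX:93632240-93632339 (minus, Pola1) and chr4:108579354-108579453 (plus, Orc1). In Mcm5 and Mcm6 a pair of matches on opposite strands overlap, which makes the capital run longer.
Cdc6: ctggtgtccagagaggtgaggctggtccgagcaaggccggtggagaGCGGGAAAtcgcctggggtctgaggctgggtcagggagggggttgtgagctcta
Mcm5: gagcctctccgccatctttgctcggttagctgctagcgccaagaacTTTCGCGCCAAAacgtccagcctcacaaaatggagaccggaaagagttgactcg
Mcm6: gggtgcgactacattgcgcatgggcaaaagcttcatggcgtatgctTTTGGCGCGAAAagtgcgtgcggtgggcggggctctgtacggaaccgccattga
Mcm7: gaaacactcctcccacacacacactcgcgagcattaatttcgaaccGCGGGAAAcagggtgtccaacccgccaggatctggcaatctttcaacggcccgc
Pola1: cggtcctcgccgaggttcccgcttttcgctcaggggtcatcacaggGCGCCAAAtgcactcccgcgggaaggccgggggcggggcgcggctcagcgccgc
Orc1: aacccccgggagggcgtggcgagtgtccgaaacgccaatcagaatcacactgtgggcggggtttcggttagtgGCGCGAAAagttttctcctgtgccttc
Of these 6 sites the nearest to its start was that of Orc1, 27 to 20 bases before it, and the farthest was that of Mcm7, 165 to 158 bases before it. Rfc3, with its site 10 to 3 bases before the start, and Uhrf1 also held one, and the promoters of Pcna, Dut, Tk1 and E2f1 did not hold these letters in this window.

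Some properties of the arrays bear on every value that follows. Spiked hybridisation controls had a geometric mean signal of 44427 and 29832 without DSS but of 6308 and 6192 with it, so that treatment and array handling cannot be told apart. The 3′ probe sets of the bacterial poly-A controls had a geometric mean of 176343 on the untreated 1 array and 16088 to 23835 on the others. The 3′-to-5′ signal ratio was 10.6 to 23.0 for Actb and 7.80 to 9.52 for Gapdh. The T cell marker Cd3e was bright on all arrays, from 7981 to 18964, and the gamma delta receptor gene Trgv4 read 29034 to 46104 (an _x_at probe set, open to related transcripts). The summed signal of 16 macrophage and dendritic cell markers was 6336 to 12515 in untreated samples against 67335 to 94102 after DSS. Of the 13 tested, 12 were higher on both DSS arrays, where 17.2% of all genes tested were. C1qc and Mrc1, among the 12, passed the filter on dim probe sets, described below, through the DSS arrays alone. The defining macrophage marker Csf1r read 4342 and 1162 against 33267 and 40991, and C1qb differed by a log2 value of 4.18. The part these cells play in the values below was not tested. The other marker lists and their 2 brightest genes were less separated: the median log2 difference was -0.43 for 11 T cell and gamma delta T cell genes (Gzma -0.44, Itgae -1.20), -0.21 for 5 alpha beta T cell genes (Cd8a -0.73, Cd8b1 -2.35; the median was 0.05 after quantile normalization), -0.39 for 7 neutrophil genes (Ngp -0.55, Csf3r 0.19), -0.07 for 6 B and plasma cell genes (Xbp1 0.19, Cd79b 0.13), 0.63 for 12 colonic epithelial genes (Cdh1 0.76, Krt8 0.78), 0.02 for 4 fibroblast and endothelial genes (Col1a2 0.02, Kdr 0.02) and -0.11 for 2 erythroid genes (Hba-a1 -0.57, Klf1 0.34). Of their defining markers Epcam read 659.1 to 1595, S100a8 31.1 to 883.1 and Cd79a 88.3 to 198.6, and none of these was at 0. The genes of a list did not all move the same way. Of the 11 T cell genes, 2 were higher on both DSS arrays (Cd3d 0.67 and Cd3g 0.36) and 4 lower. Of the 12 epithelial genes, 3 were higher and 2 lower (Krt18 -0.72 and Tff3 -0.67). Over all genes tested 17.2% were higher and 23.8% lower.

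The replication genes as a group had higher signals in the DSS samples, but no single gene passed the test. The question put to each was whether its log2 signal differed between the groups by more than the arrays within a group differed from each other. Of the 34 tested members, 15 had both DSS signals above both untreated signals (44.1%), where 17.2% of all genes tested were. Of the tested members, only Orc1 and Rfc4 were lower on both, where 23.8% of all genes were, and 17 overlapped. Both DSS signals were at least 2-fold above both untreated ones for 5 members, Cdc6, Gmnn, Gins2, Pcna and Dut (2.41% of all genes), and at least 2-fold below for 0 (3.01% of all genes). The median log2 difference, DSS minus untreated, was 0.58 over the 34 members and -0.07 over all genes, and 30 of the 34 estimates were above 0, against 46.1% of all genes. Limma called 0 members and 0 of all genes (0% of 12424) at a Benjamini-Hochberg adjusted p of 0.05, and the smallest adjusted p among members was 0.211, for Gins2. At an unadjusted limma p under 0.05 6 members were higher (Gins2, Cdc6, Dut, Pcna, Gmnn and Mcm3) and 0 lower, where 3.71% of all genes were higher and 3.81% lower. Without the untreated 1 array limma called 9 members, 8 of them higher (1791 of all genes, 14.4%), and without the untreated 2 array 8, all higher (755 of all genes, 6.08%). Both of these fits take the single untreated array left to vary as much as the DSS pair. They share the DSS arrays, so neither repeats the other. In RNA from sorted cells, more cycling cells and more of these transcripts per cell cannot be told apart. The part that other cell types in the samples played, macrophages and epithelial cells among them, was not tested.

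**Figure D1:**
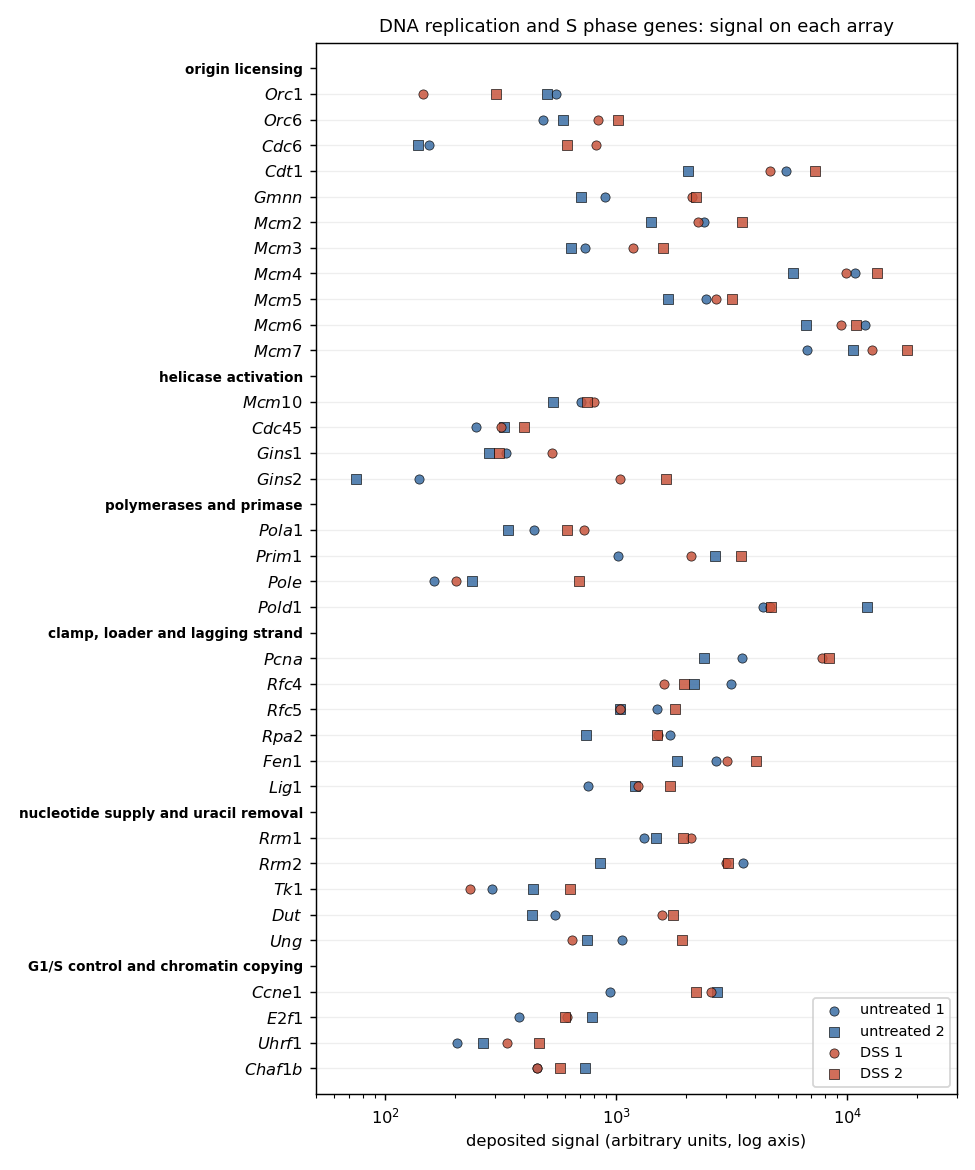
Deposited signal of each of the 34 tested genes (rows, by role) on each array, on a log axis in arbitrary units; blue marks untreated and red DSS samples, circles replicate 1 and squares replicate 2. Gins2, Cdc6, Dut, Gmnn and Pcna show both red symbols clear of both blue ones, while genes such as Rrm2, Rpa2 and Pold1 show untreated arrays as far apart as the groups. Positions of different genes are not comparable as levels.

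The filter on dim probe sets touches these counts. Cdc6 and Gins2 passed it through the DSS arrays alone, a route that favours genes with higher DSS signals. Array medians were 193.8 and 213.9 (untreated) against 157.1 and 163.3 (DSS), so a gene could pass that way without differing. Without Cdc6 and Gins2 the median of the other 32 was 0.55, with 13 higher on both DSS arrays (40.6%). Of 11673 genes, likewise without those tested through 1 group's arrays alone, 15.5% were higher and the median was -0.07. Of the 32 members, 3 had both DSS signals at least 2-fold above both untreated ones, and 4 were higher at an unadjusted limma p under 0.05. Over all 12424 genes, with none left out, those shares were 2.41% and 3.71%. With no filter at all, 37 members had a value: 16 were higher on both DSS arrays and 4 lower, a median of 0.53, where 14.8% and 25.1% of 18193 genes were higher and lower and the median was -0.14. The 3 genes that the filter removed were dim. Ccne2, a cyclin E, read 196.1 and 197.4 (untreated) against 154.7 and 118.3 (DSS). Both probe sets of Rfc3, a clamp loader subunit, lay between 8.91 and 269.5, and the 4 probe sets of Tyms, which makes thymidylate, lay between 7.37 and 193.1. Chaf1a, a subunit of the histone chaperone CAF-1, had no probe set assigned to it alone.

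A rank within each array does not depend on how the array was scaled. The median member stood at percentile 64.9 and 59.6 of the tested genes on the untreated arrays and at 73.5 and 79.2 on the DSS arrays. Both DSS arrays were therefore above both untreated arrays on this measure too. It includes Cdc6 and Gins2, which were tested through the DSS arrays alone, and was not made without them. The mitosis genes stood at 28.9 and 41.2, then 43.3 and 49.7. Anln, Birc5, Melk and Ncapg, tested through the DSS arrays alone, are among the mitosis genes. The arrays of 1 group also differed: 21 of 34 members were higher on untreated 1 than on untreated 2 (61.8%, against 46.9% of all genes), and 26 were higher on DSS 2 than on DSS 1 (76.5%, against 50.8%). The median log2 difference over the members was 0.27 for untreated 1 minus untreated 2 and -0.29 for DSS 1 minus DSS 2, beside 0.58 for DSS minus untreated.

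Differences followed signal level over all genes, so members were also set beside genes of like brightness. Of genes with a mean signal under 500, 12.4% were higher on both DSS arrays, with a median of -0.27, and of the 8 members there 3 were, with a median of 0.53. Without genes tested through 1 group's arrays alone, Cdc6 and Gins2 among them, 1 of 6 members was higher, with a median of 0.33, beside 7.99% of genes and a median of -0.26. From 500 to 2000 the share was 20.5% with a median of 0.04, and 8 of 14 members were, with a median of 0.54. Over 2000 it was 23.9% with a median of 0.11, and 4 of 12 members were, with a median of 0.62. The members' median was thus above that of all genes in each of the 3 classes.

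Origin licensing genes had a median log2 difference of 0.76 over 11 genes, of which 6 were higher on both DSS arrays and 1 lower. Over all genes tested 17.2% were higher and 23.8% lower, and Cdc6, 1 of the 6, passed the filter through the DSS arrays alone. Cdc6, the ATPase that loads the MCM ring with ORC and Cdt1, read 154.7 and 139.1 (untreated) against 814.8 and 615.1 (DSS). Its DSS signals lay well clear of the untreated ones, with a log2 difference of 2.05 ± 0.46 (limma standard error, 2 arrays per group, as for all that follow) and a limma adjusted p of 0.565. Gmnn encodes geminin, which binds Cdt1 and prevents a second licensing in the same S phase. It read 891.2 and 705.6 (untreated) against 2120 and 2211 (DSS), and differed by 1.41 ± 0.38 (limma adjusted p = 0.649). Cdt1, the partner that geminin restrains, differed by 0.79 ± 0.54 and its groups overlapped.

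The MCM2-7 ring is built of 6 related subunits, and all 6 had estimates above 0 on their brightest probe sets, with a median of 0.57 and a range of 0.19 to 0.97. Without probe sets ending in _x_at or _s_at, Mcm3 was at -0.19 and Mcm7 at -0.35. Mcm3 read 734 and 640.6 (untreated) against 1182 and 1589 (DSS) and differed by 0.97 ± 0.40 (limma adjusted p = 0.649). Mcm7 (0.86), Mcm3 and Mcm5 (0.52) were higher on both DSS arrays, while the groups of Mcm2 (0.60), Mcm4 (0.53) and Mcm6 (0.19) overlapped. For Mcm2, Mcm4, Mcm5 and Mcm6 the untreated 1 array lay close to the DSS arrays and the untreated 2 array below them. Mcm6, for example, read 11960 and 6627 (untreated) against 9404 and 10958 (DSS), and its difference was -0.24 without the untreated 2 array.

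The subunits of ORC had estimates on both sides of 0. Orc6 read 482.1 and 588.5 against 836.2 and 1023, with a difference of 0.76 ± 0.40. Orc1, the ATPase subunit of ORC whose level is known to vary through the cycle, read 547.1 and 504.2 (untreated) against 146.2 and 300.9 (DSS). Both DSS arrays were lower, with a difference of -1.19 ± 0.51 (limma adjusted p = 0.649), the lowest of the tested members, and its estimate stayed below 0 under each of the 11 alternatives that moved any member's difference. Its other probe set, which was dim, read 124.1 and 120.9 against 15.3 and 143.9. Of the 6 ORC genes, counting Orc2 to Orc5 from the wider replication list, 2 were higher on both DSS arrays and 2 lower, with a median of 0.23. Over all genes tested 17.2% were higher and 23.8% lower.

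The 4 genes that switch the loaded helicase on had a median of 0.34, and Gins2 lay far above the others. Gins2, a subunit of the GINS complex, read 139.8 and 74.5 (untreated) against 1039 and 1648 (DSS). Its log2 difference of 3.31 ± 0.49 was the highest of the tested members, but its adjusted p by limma was 0.211. Both untreated signals were below their array's median, and the difference was 3.67 with a pseudocount of 1 and 2.79 with 100. Its other kept probe set read 157.4 and 250 against 222.6 and 237.7, a difference of 0.18, so the large value rests on 1 probe set, whose _s_at ending marks possible binding of related transcripts. Of its partners, Gins3 differed by 1.61, Gins1 by 0.37 ± 0.48 (333.8 and 281.7 against 525.2 and 311.6; limma adjusted p = 0.834) and Gins4 by -0.63. Mcm10, which helps activate the helicase, read 706.4 and 531.3 against 799.7 and 746.7. That is a difference of 0.32 ± 0.40 (limma adjusted p = 0.827), with both DSS arrays only just above untreated 1. Cdc45, the third part of the active helicase, differed by 0.29 and overlapped. Its other probe set did not pass the filter and went the other way. It read 159.2 and 741.2 (untreated) against 40.4 and 91.0 (DSS), a difference of -2.03.

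None of the polymerase genes reached an unadjusted limma p of 0.05, and 1 of the 4 was higher on both DSS arrays, where 17.2% of all genes were. Pola1, the catalytic subunit of the polymerase that starts each new strand, read 443.2 and 339.9 (untreated) against 724 and 615.8 (DSS), a difference of 0.74 ± 0.41 (limma adjusted p = 0.679). Prim1, the primase that lays down its RNA primer, read 1020 and 2674 against 2116 and 3476, a difference of 0.70 ± 0.55 (limma adjusted p = 0.728) with overlapping groups. Pole, the catalytic subunit of the leading-strand polymerase, read 163.1 and 236.6 against 202.7 and 691.1. Its difference of 0.85 ± 0.66 (limma adjusted p = 0.728) was 0.04 without the DSS 2 array, and the groups overlapped. Pold1, the catalytic subunit of the lagging-strand polymerase, had an estimate of -0.64, with untreated 2 at 12221 and the other 3 arrays at 4330 to 4679. Without untreated 2 its difference was 0.10, and without untreated 1 limma called it lower, at -1.39.

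Of the genes for the clamp, its loader and the joining of lagging-strand fragments, Pcna differed most. Pcna, the clamp that tethers polymerases to DNA, read 3507 and 2407 (untreated) against 7740 and 8306 (DSS). Both DSS signals were over 2-fold above both untreated ones, and the difference was 1.45 ± 0.39 (limma adjusted p = 0.649). Fen1, which trims the flaps of lagging-strand fragments, read 2713 and 1829 against 3019 and 4047 and differed by 0.64 ± 0.41 (limma adjusted p = 0.693). Lig1, the ligase that seals them, read 751.9 and 1208 against 1239 and 1715 and differed by 0.60 ± 0.43 (limma adjusted p = 0.717). For both, the DSS arrays lay above the untreated ones by a narrow margin. Rfc4, a clamp loader subunit, was lower on both DSS arrays (-0.55), Rfc5 differed by 0.12 and Rpa2, a subunit of the single-strand binding protein, by 0.42, both with overlapping groups. Over the 4 tested genes of the loader, with Rfc1 and Rfc2 from the wider list, the median was -0.15, and it was 0.19 with common median scaling.

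Genes of nucleotide supply had estimates above 0 in all 5 tested cases, and 2 were higher on both DSS arrays, where 17.2% of all genes were. Dut, the dUTPase that keeps uracil out of DNA and provides dUMP for thymidylate synthesis, read 543.8 and 431 (untreated) against 1581 and 1757 (DSS), a difference of 1.72 ± 0.39 (limma adjusted p = 0.565). Rrm1, the large subunit of ribonucleotide reductase, read 1320 and 1493 against 2107 and 1950 and differed by 0.52 ± 0.38 (limma adjusted p = 0.717). Its partner Rrm2, the small subunit which limits the enzyme in cycling cells, read 3545 and 849.6 against 2982 and 3063, a difference of 0.78 ± 0.65 (limma adjusted p = 0.739). The untreated arrays of Rrm2 lay farther apart than the groups, and its difference was 1.79 without untreated 1 and -0.23 without untreated 2. Tk1, the thymidine kinase of cycling cells (0.11), and Ung, which removes uracil from DNA (0.33), overlapped, and both had estimates below 0 without DSS 2.

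Regulators of entry into S phase and factors that copy chromatin had a median of 0.35 over 4 genes. Of these, 1 was higher on both DSS arrays, where 17.2% of all genes were. Uhrf1, which brings maintenance DNA methylation to new DNA, read 204.2 and 264.2 (untreated) against 338.4 and 465.6 (DSS). It was higher on both DSS arrays, by 0.70 ± 0.48 (limma adjusted p = 0.707). Ccne1, the cyclin E that drives entry into S phase, read 942.5 and 2719 against 2566 and 2211, a difference of 0.56 ± 0.55 (limma adjusted p = 0.776), with overlapping groups. Chaf1b, a CAF-1 subunit that deposits histones on new DNA, read 456.6 and 736.7 against 453.3 and 569, a difference of -0.18 ± 0.44 (limma adjusted p = 0.915). The transcription factor E2f1 differed by 0.14, with both DSS signals between the untreated ones.

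**Figure D2:**
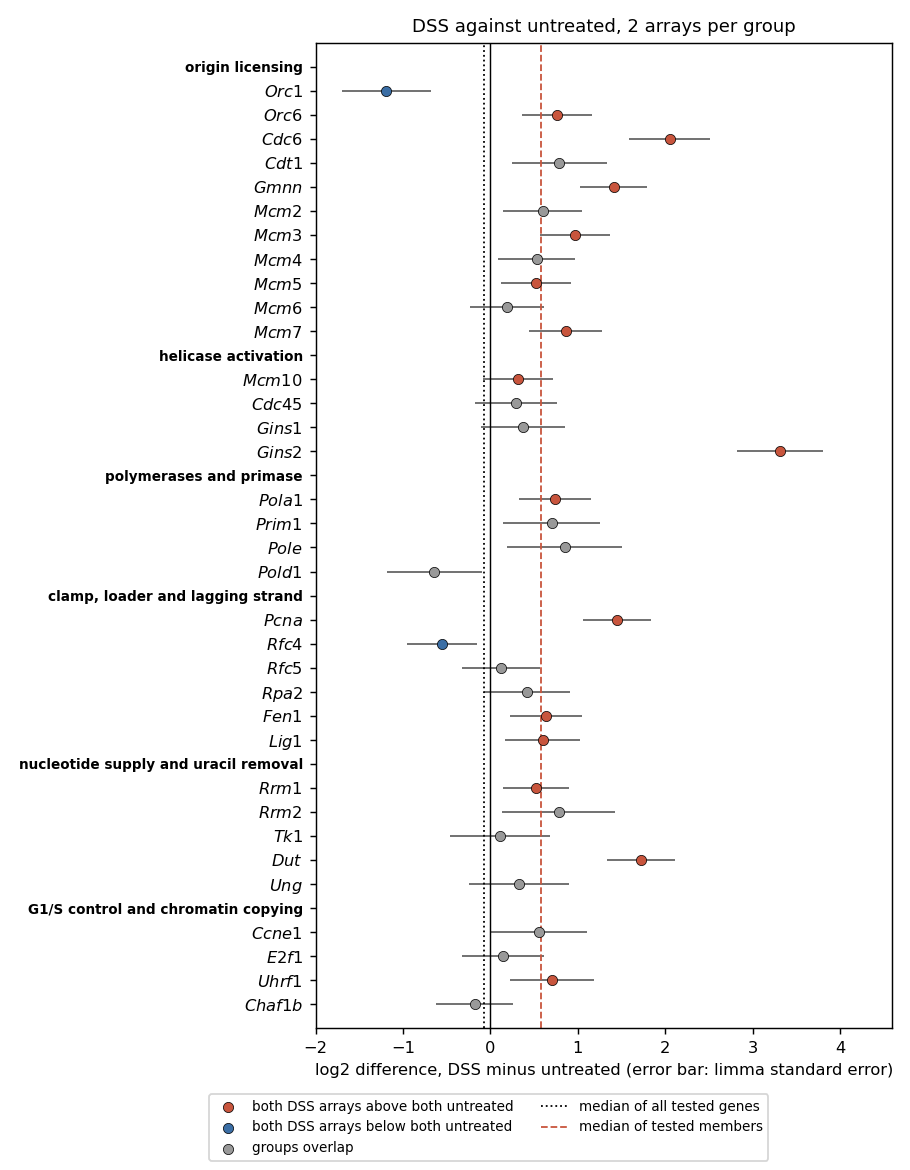
Log2 difference, DSS minus untreated, of each tested gene with its limma standard error; red points have both DSS arrays above both untreated arrays, blue points both below, and grey points overlap. The dashed line at 0.58 is the median of the 34 genes and the dotted line at -0.07 that of all 12424 genes tested; Gins2 at 3.31 and Orc1 at -1.19 are the extremes.

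More than 1 probe set passed the filter for 17 of the genes, which gives a second reading of the gene. Where each probe set lies in the transcript was not examined. For 11 of them every kept probe set had an estimate above 0, for 2 (Chaf1b and Pold1) every one was below 0, and for 4 (Dut, Mcm3, Mcm7 and Rfc4) they disagreed in sign. Of the 22 kept probe sets that were not the brightest of their gene, 10 were higher on both DSS arrays and 2 lower, with a median of 0.63. The 10 include a probe set of Mcm5 and one of Ccne1 that passed the filter through the DSS arrays alone. Neither the count nor the median was made without them. Among all 20224 kept probe sets with 1 gene symbol, 17.5% were higher and 23.1% lower. Another 22 member probe sets did not pass the filter, and their median was -0.18, with 4 higher and 4 lower on both DSS arrays. Of all probe sets with 1 gene symbol, kept or not, 14.5% were higher and 24.7% lower, with a median of -0.14. Probe sets whose names end in _x_at or _s_at can bind related transcripts, so their values are less certain; they stood for Mcm2 to Mcm7, Gins2, Pold1, Rfc4, Fen1, Rrm2 and Ccne1. The 15 kept member probe sets with these endings had a median of 0.60 and the other 41 a median of 0.58.

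Several MCM genes read differently by this ending. On the bright _x_at probe sets of Mcm4, Mcm5 and Mcm6 the differences were 0.53, 0.52 and 0.19, while on a dimmer probe set ending in _at they were 1.56, 2.00 and 1.20. The dimmer Mcm4 probe set read 1155 and 334.7 (untreated) against 1674 and 2193 (DSS). That of Mcm5 read 25.4 and 168.2 against 290.7 and 539.2, and passed the filter through the DSS arrays alone. That of Mcm6 read 1110 and 934.3 against 2135 and 2652. On all 3 of these probe sets both DSS arrays were above both untreated arrays, which was so on the bright probe set of Mcm5 only. Mcm7 ran the other way: its probe sets ending in _x_at or _s_at gave 0.72 to 1.00 and the remaining one -0.35.

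Cyclin E and the clamp loader also had discordant readings. The second probe set of Ccne1 read 46.2 and 92.6 (untreated) against 561.7 and 361.6 (DSS), a difference of 2.29 against 0.56 on the brighter one, and passed the filter through the DSS arrays alone. The second of Rfc4 read 455.4 and 34.8 against 422 and 716.4, a difference of 1.69 against -0.55. The second of Dut read 31.0 and 417.8 against 176.7 and 23.5, a difference of -0.65 with the arrays of each group far apart. The large Dut value therefore rests on its brighter probe set, while Prim1 (0.70 and 0.71), Mcm2 (0.60 and 0.58) and Rpa2 (0.42 and 0.38) gave nearly the same value on both probe sets. Pcna, Gmnn and Cdc6 have 1 probe set each and no second reading.

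**Figure D3:**
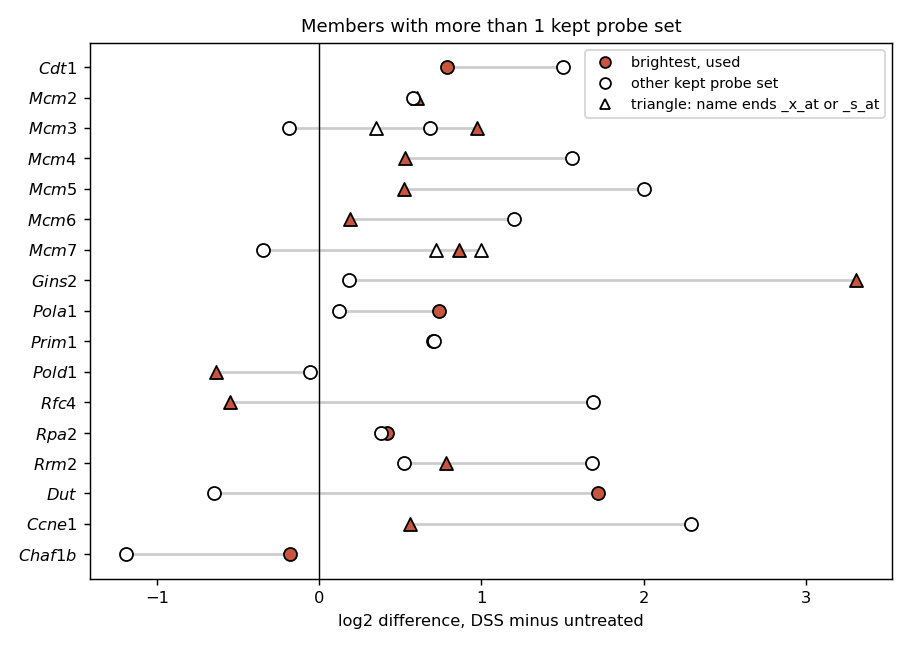
Log2 difference, DSS minus untreated, for each kept probe set of the 17 genes with more than 1; filled symbols are the brightest probe set, used for the gene, open symbols the others, and triangles mark names ending in _x_at or _s_at. Mcm4, Mcm5, Mcm6 and Ccne1 have the open symbol to the right of the filled one, and Gins2 and Dut have it far to the left.

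Other genes of replication and S phase, listed by function, were read in the same way. Of 37 tested genes of other replication machinery, 11 were higher on both DSS arrays (29.7%, against 17.2% of all genes) and 10 were lower (23.8% of all genes). Limma called 0, and the median was 0.19. Atad5, 1 of the 11, was tested through the DSS arrays alone, and without it 10 of 36 were higher (27.8%) and 10 lower. Of 11673 genes not tested through 1 group's arrays alone, 15.5% were higher. The 3 with the smallest p were Top2a, the topoisomerase that untangles copied chromosomes (1.60 ± 0.40; 759.3 and 1134 against 2800 and 2951), Gins3 (1.61 ± 0.50; 390.5 and 177.6 against 729.3 and 1045) and Topbp1, which helps assemble the active helicase (1.55 ± 0.51; 866.1 and 350.4 against 1536 and 1836). Each had both DSS arrays above both untreated arrays, and each had a limma adjusted p of 0.649. Of 34 further genes of nucleotide synthesis, histone supply and the S phase checkpoint, 11 were higher on both DSS arrays (32.4%) and 2 lower, with a median of 0.17 and 0 called. They were led by E2f8, an E2F family repressor whose dim untreated signals left it tested through the DSS arrays alone (3.45 ± 0.89; 9.95 and 12.1 against 381.5 and 504.2), the recombination factor Rad51ap1 (1.46 ± 0.39; 540.1 and 716.8 against 1678 and 1876) and Hells, a chromatin remodeller (1.53 ± 0.41; 242.5 and 251.1 against 743.2 and 798.5), all at an adjusted p of 0.649. Without E2f8, 10 of the other 33 genes of this list were higher on both DSS arrays (30.3%), with a median of 0.14. Read as whole complexes, members included, the median was 0.72 for polymerase alpha-primase, 0.54 for polymerase epsilon, -0.03 for polymerase delta and -0.32 for replication protein A. Each complex had 3 or 4 tested genes. The last pair of medians were above 0 after quantile normalization, at 0.11 and 0.39.

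Mitosis genes were also higher more often than all genes. Of 38 tested mitosis and spindle genes, 17 were higher on both DSS arrays (44.7%) and 3 lower, with a median of 0.55 and 0 called by limma. Anln, Birc5, Melk and Ncapg were tested through the DSS arrays alone. Without these 4 genes 13 of 34 were higher (38.2%, against 15.5% of genes not tested through 1 group's arrays alone), with a median of 0.44. The condensin subunit Ncapg (2.32 ± 0.72; 145.6 and 30.0 against 395.6 and 607.2), the kinetochore gene Cenpk (1.51 ± 0.47; 197.6 and 385.9 against 743.7 and 972.7) and Spc25 of the Ndc80 complex (1.61 ± 0.51; 448 and 183.7 against 826.1 and 1092) led it. Mki67, a marker of cycling cells, read 1323 and 2634 against 3800 and 3275, a log2 difference of 0.91. Among 17 genes that restrain the cycle, 4 were higher on both DSS arrays (23.5%, against 17.2% of all genes) and 0 lower, with a median of 0.26. They included the p53 target Cdkn1a, or p21 (1.41 ± 0.46; 353.4 and 590.6 against 1004 and 1603), and Cdkn2d (1.67 ± 0.86; 26.6 and 277.5 against 392.8 and 399), while E2f5, the third by p, overlapped at -1.08 ± 0.58. After quantile normalization 4 of the 17 genes that restrain the cycle were higher and 2 lower on both DSS arrays. After cyclic loess 4 were higher and 3 lower, and with common median scaling 6 and 0. No difference between these lists was tested.

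**Figure D4:**
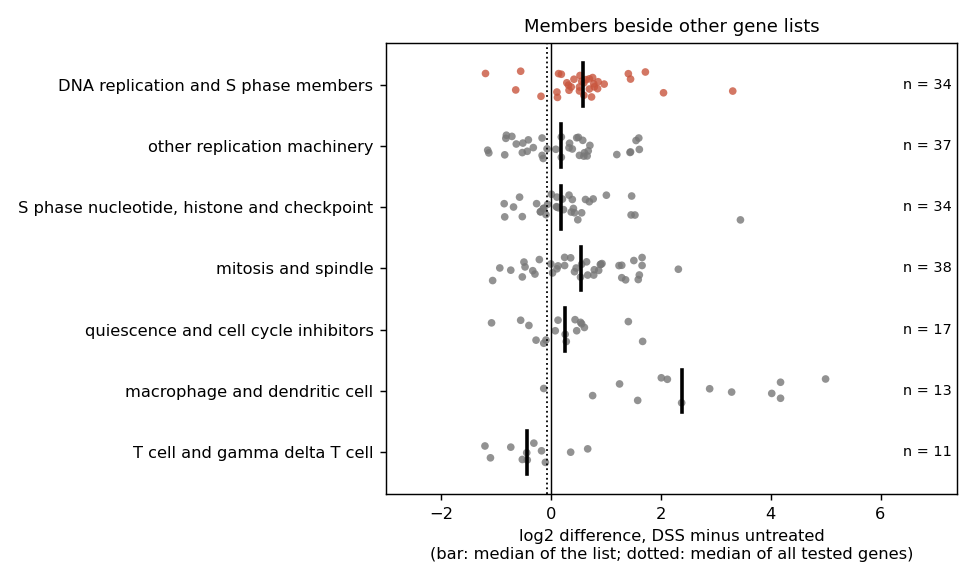
Log2 difference, DSS minus untreated, of each tested gene (points, spread vertically for legibility) in the replication and S phase set, 4 other cell cycle lists and 2 marker lists, with the median of each list as a bar and that of all tested genes dotted. The replication and mitosis medians, 0.58 and 0.55, lie close together, the macrophage median of 2.38 lies far above and the T cell median of -0.43 below.

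How the arrays were scaled changed the size of the shift more than its direction. The member median was 0.58 as deposited, 0.51 after quantile normalization, 0.51 after cyclic loess and 0.92 after scaling to a common median, while the all-gene medians were -0.07, 0.01, -0.01 and 0.25. The members' median was above that of all genes under each scaling. Of the members, 15, 17, 15 and 25 were higher on both DSS arrays, where 17.2%, 19.0%, 18.4% and 30.9% of all genes were. All 6 MCM2-7 subunits kept estimates above 0 on their brightest probe sets under these 4 scalings.

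**Figure D5:**
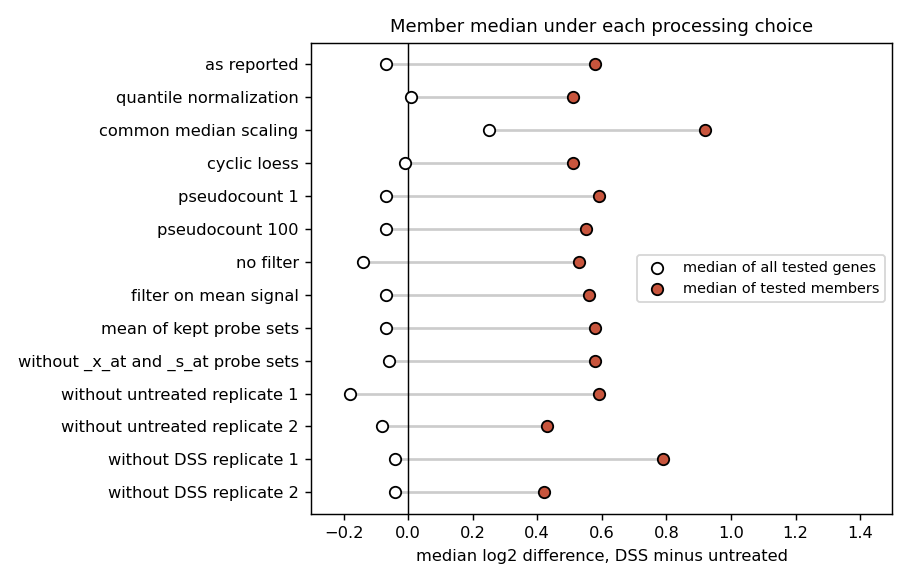
Median log2 difference, DSS minus untreated, of the tested replication and S phase genes (red) and of all tested genes (white) under each scaling, pseudocount, filter, probe set rule and left-out array. The red symbol lies to the right of the white one in every row, from 0.42 without DSS replicate 2 to 0.92 with common median scaling.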

How the data were processed

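RNA was amplified (RiboAmp HS), labelled with biotin and hybridised to 1-colour arrays, per the labels' protocols. The deposited intensities, 1 linear signal per probe set for 45101 probe sets, were made by the authors with GCOS, per the submitters' processing notes; which version and scaling settings it ran with is not stated there. Each array averages 499.8 after 2% is trimmed from each end. The number of arrays limits the precision, and detection calls were not used here.

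Genes were named from the platform table: 34958 probe sets had 1 symbol, and 0 symbols were updated. The 64 control probe sets were left out. Log2(signal + 32) values were used without further normalization, so fold changes of dim genes are understated. Probe sets above their array's median on at least 2 arrays were kept, and the brightest represented its gene. R 4.3.3 and limma 3.58.1 (lmFit, eBayes with trend) compared 12424 genes, with Benjamini-Hochberg adjustment at 0.05; the script was tested on simulated data.

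The members, lists and tests were chosen with earlier results of these data known. All members were named; those given in full were the 3 of each role with the largest absolute moderated t. The signals of Orc1, Orc6, Mcm6, single probe sets, Trgv4 and Mki67 were added with their values in view. From each pathway list the 3 genes with the smallest p were named, and from each marker list the 2 brightest and the defining markers. A comparison of protein sequences was not made.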

Additional observations from a re-analysis of the deposited data

How the results depend on the processing

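With 2 arrays per group an exact permutation test of 1 value cannot give a two-sided p below 0.333, so the counts above describe these arrays. Of the 34 tested members, 21 kept their direction (20 higher, and Orc1 lower) under the 11 of 16 alternatives that moved any member's difference, and 13 reversed in at least 1. Fen1, among the 21, has no value without the _x_at and _s_at probe sets. The median of the tested members stayed above 0 throughout, at 0.42 to 0.79 with 1 array left out and 0.92 with common median scaling, which also gave 25 members higher and 1 lower on both DSS arrays. Members lower on both DSS arrays numbered 4 with no filter and 1 with kept probe sets averaged. With 1 array left out, 16 to 24 members were higher (25.5% to 36.9% of all genes) and 2 to 6 lower (34.3% to 47.7%), 0 to 9 members were called, and 0 to 1791 of all genes. Limma called 3 genes with probe sets averaged, 4 at an adjusted p of 0.1, and 67 with the replicate number as a block, Gins2 (adjusted p = 0.00199) being the 1 member among them. The replicate numbers are not taken as pairing: the replicate 1 minus 2 differences of both groups correlated at r = 0.052 across genes.

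Chaf1b turned to 0.14 with common median scaling, Rfc4 to 0.57 with probe sets averaged and 1.69 without the _x_at and _s_at probe sets, and Mcm3 to -0.19 and Mcm7 to -0.35 without them, since another probe set then stood for the gene. With 1 array left out, the log2 difference ranged from -0.19 to 1.31 for Ccne1, -0.36 to 0.63 for E2f1, -0.55 to 0.77 for Tk1, -0.51 to 0.14 for Chaf1b, -0.24 to 0.61 for Mcm6, -1.39 to 0.10 for Pold1, -0.26 to 0.51 for Rfc5, -0.17 to 1.01 for Rpa2, -0.23 to 1.79 for Rrm2 and -0.44 to 1.10 for Ung. Where the probe set used did not change, the cause was not tested.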
